A study of Drosophila melanogaster with 12 samples.

Results

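The genes ple, TyrR and e encode an enzyme, a receptor and a second enzyme of biogenic amine signalling, and all 5 cDNA probes annotated to them by current symbol were followed array by array. They are 3 of 6692 genes, and 5 of 13824 probes, on a spotted array with 2 spots per probe. ple (pale, CG10118) had 2 probes, TyrR (CG7431) had 1 and e (ebony, CG3331) had 2. ple and TyrR were picked from their values at day 10, and the contrast on which e was picked was not given, so the values of all 3 genes are a description with no test, apart from ple between the day-14 arms. No level of a transcript can be read from these data, only the ratio between the channels of an array.

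RNA came from heads of unmated adult Oregon-R wild-type male flies that were 3 to 4 days old when treatment began, with 30 flies in a vial at the start. All treated flies first received pentylenetetrazole (PTZ), a convulsant, in food at 8 mg/ml for 7 days. In the first group they then received ethosuximide (ETH), an antiepileptic drug, at 3.48 mg/ml for 3 days and were harvested on day 10. In the second group 4 days on normal food followed the same ETH course, with harvest on day 14. In the third group the flies went from PTZ to normal food for 3 days and then 4 more, with harvest on day 14. Untreated flies on normal food throughout supplied the other channel of every array. Each group had 4 arrays, each a separate biological replicate with its own pair of head pools. Every control fly lacked PTZ as well as ETH, so the first and second groups carry both drugs against neither, and the third carries PTZ alone against none. Heads hold brain, eye, glia, fat body and muscle.

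Dopamine is made from tyrosine in a pair of steps, of which tyrosine hydroxylase, the product of ple, carries out the first and rate-limiting one and dopa decarboxylase (Ddc) the second. In fly heads ple marks dopaminergic neurons, and the epidermis uses the same enzyme to make dopamine for cuticle pigment and hardening. TyrR is a G protein-coupled receptor for tyramine, the amine that also serves as the precursor of octopamine. The e gene encodes a synthetase that joins beta-alanine to dopamine in the cuticle and to histamine in glia of the visual system, where histamine is the photoreceptor transmitter. The product of t (tan) splits these conjugates again.

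The dyes were balanced within each group: Cy5 marked the treated RNA on replicates 1 and 2, and Cy3 marked it on replicates 3 and 4, the dye swaps. Values are log2 ratios of treated over untreated, read as Cy5 over Cy3, with the dye swaps turned in sign and the array median set to 0. The sources used here do not say whether swap ratios had already been turned before deposit, so the direction on replicates 3 and 4 is an assumption, and values with the swaps left as deposited are given beside the main ones. As deposited, day-10 arrays of opposite orientation correlated across probes at r = 0.38 to 0.48. Those of the same orientation gave 0.43 and 0.55. At day 14 with ETH, opposite pairs gave -0.04 to 0.33 and like pairs 0.13 and 0.41. Without ETH, opposite pairs gave -0.225 to 0.277 and like pairs 0.33 and 0.60. A dye effect and turning before deposit cannot be told apart in these values, and neither was tested. On the day-10 arrays 9106 to 10433 probes had a value; the range was 5077 to 7399 in the day-14 group that received ETH and 6869 to 7433 in the one that did not. The number of arrays limits the precision. Ratios also followed position on the slide. The SD of the medians of the 48 print blocks was 0.22 to 0.37 log2 on day-10 arrays, and over the day-14 arrays it was 0.07 to 0.21 with ETH and 0.07 to 0.14 in its absence.

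The members were thinly measured. The first ple probe had a value on 3 of 12 arrays, the second on 7, the TyrR probe on 4, and the e probes on 5 and 1. The median probe with 1 gene had a value on 8 arrays. Fewer arrays than for the member were found for 6.6% of the 7558 such probes in the case of the first ple probe, 38.9% for the second, 10.9% for TyrR, and 21.2% and 1.1% for the e probes. No member reached the 3 arrays asked of a testable probe in either day-14 group. Loss of this kind was common: of 6093 probes with 1 gene and at least 3 arrays at day 10, 2513, or 41.2%, had fewer than 3 arrays in both day-14 groups. A missing value is a spot that the authors' filters removed, and it is not a level of 0.

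**Figure D1:**
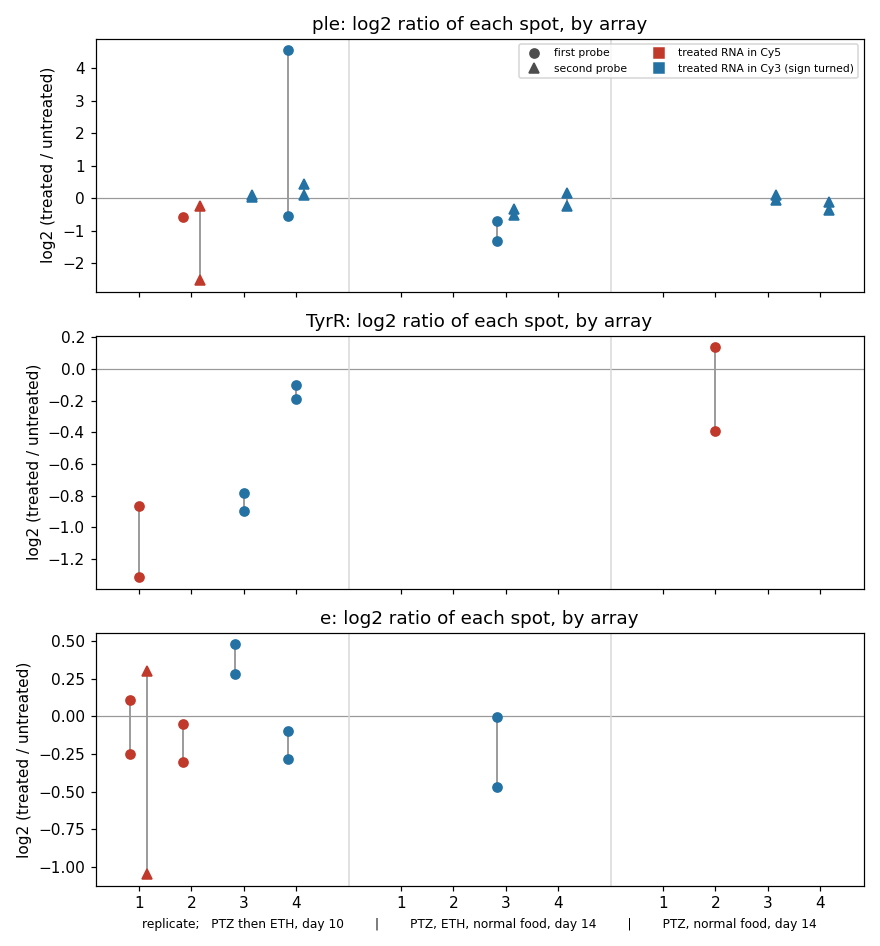
Log2 ratio of treated over untreated for every measured spot of ple (top), TyrR (middle) and e (bottom), by replicate within the 3 groups, with a line joining the 2 spots of a probe; red is treated RNA in Cy5 and blue treated RNA in Cy3 with the sign turned. Values crowd into the day-10 group, the ple probes at day 14 appear on blue arrays alone, and 1 spot of ple stands at 4.55.

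The second ple probe, in print block 14, gave the most complete record of tyrosine hydroxylase. At day 10 its ratio was -1.38 on replicate 2, 0.07 on replicate 3 and 0.26 on replicate 4, with no value on replicate 1. The 2 dye swaps averaged 0.17, and replicate 2 alone lay below 0. The plain mean was -0.35 ± 0.90 (SD, n = 3), and it was 0.17 without replicate 2, -0.56 without replicate 3 and -0.65 without replicate 4.

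Replicate 2 of day 10 was itself divided between the spots of that probe. Its first spot stood at -2.52 and its second at -0.23. Their difference of 2.29 log2 exceeded that of 99.5% of the probes with both spots on this array, where the median difference was 0.19. Taken over the 3 arrays, the first spots alone averaged -0.78 and the second spots alone 0.08. Under the turned reading, the low day-10 mean of this probe was thus carried by 1 spot on 1 array. If the swaps are not turned, its second spots too lie below 0 on each of the 3 arrays.

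A limma fit over all arrays, in which each group has its own mean and each probe 1 dye effect, gave the second ple probe a day-10 mean of -0.61 (SE 0.16, 3 residual degrees of freedom). That number is the average of -1.38 from the lone Cy5 array and 0.17 from the 2 swaps, which gives replicate 2 as much weight as the other 2 arrays together. Replicate 2 is the only array of this probe with treated RNA in Cy5, so the dye effect fits it exactly. The SE therefore leaves out the deviation of that array. With first spots alone the fitted mean was -1.21, and with second spots alone it was 0.004. Subtracting the median of its print block from each value left the fitted mean at -0.63. With the swaps not turned the 3 arrays all lay below 0, and the plain mean was -0.57 ± 0.70 (SD, n = 3), against -0.35 with them turned.

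The first ple probe, in print block 3, differed from the second. Of its 24 spots on 12 arrays, 5 had a value. At day 10 replicate 2 gave -0.59 from a single spot, and replicate 4 gave 2.01. The replicate 4 value averaged 1 spot at -0.54 and another at 4.55, a difference of 5.08 log2 that exceeded that of 99.969% of probes on the array. The 2 arrays lay on opposite sides of 0, with a mean of 0.71 ± 1.84 (SD, n = 2). With the swap not turned both were below 0, and the mean was -1.30 ± 1.00. On replicate 2, the single array of day 10 where both probes ran with treated RNA in Cy5, they read -0.59 and -1.38, both below 0. On replicate 4 they read 2.01 and 0.26.

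**Figure D2:**
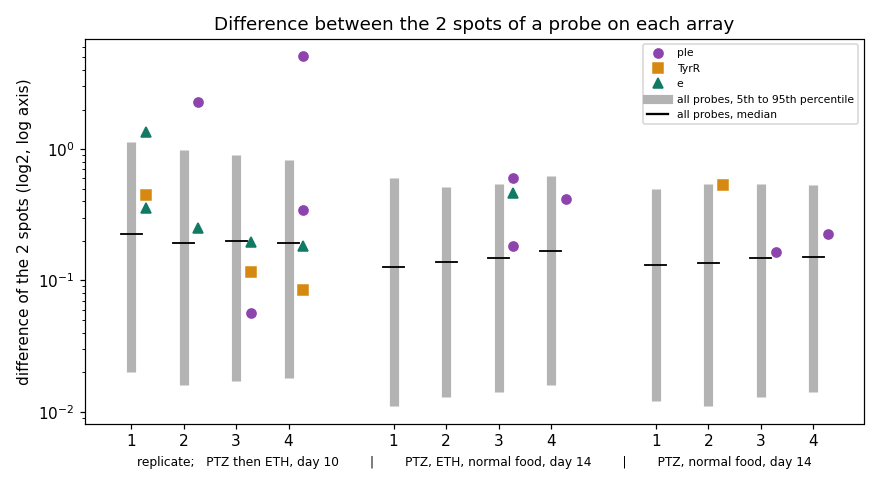
Absolute difference between the 2 spots of a probe (log2, on a log axis) for each array with both spots of a member measured, by replicate within the 3 groups; grey bars span the 5th to 95th percentile of all probes on that array and black lines their median. The ple differences of 5.08 and 2.29 and the e difference of 1.35 stand above the grey bars at day 10, while TyrR lies within them there.

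With the swaps turned, TyrR had the lowest group mean of the members at day 10. Its ratio was -1.09 on replicate 1, -0.84 on replicate 3 and -0.15 on replicate 4, with no value on replicate 2. All 3 arrays lay below 0, and their plain mean was -0.69 ± 0.49 (SD, n = 3). Its paired spots lay on the same side of 0 on each of these arrays. They read -1.32 and -0.87 on replicate 1, -0.90 and -0.78 on replicate 3, and -0.10 and -0.19 on replicate 4. The plain mean was -0.49 without replicate 1, -0.62 without replicate 3 and -0.97 without replicate 4.

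The fitted day-10 mean of TyrR was -0.79 (SE 0.21), with 1 residual degree of freedom. The dye effect fits replicate 1, its only day-10 array with treated RNA in Cy5, exactly, so the SE leaves out the deviation of replicate 1. The mean itself was also refitted under other settings. This mean was -0.84 after print-block medians were subtracted, -0.65 without centring and -0.43 with all arrays scaled to a common spread. The reading of the swaps had the greatest effect on it. With them not turned the arrays stood at -1.09, 0.84 and 0.15, so that 1 of 3 was below 0, and the plain mean was -0.04 ± 0.98 (SD, n = 3) and the fitted mean -0.30. In bulk head RNA, fewer cells that express a gene and less of its RNA per cell cannot be told apart, here as for ple and e.

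The first e probe averaged close to 0 at day 10, with its arrays scattered around 0. This probe, in print block 29, read -0.07, -0.17, 0.38 and -0.19 on replicates 1 to 4. The arrays lay on both sides of 0, with 3 below it, and the mean was -0.01 ± 0.27 (SD, n = 4). With the swaps not turned it was -0.11 ± 0.24. This was the single member probe with a value on all 4 arrays of a group, 2 in each dye orientation. The second e probe, in print block 30, had a value on replicate 1 alone. It read -0.37 there, from spots at -1.05 and 0.30, a difference that exceeded that of 96.5% of probes on the array. The first e probe read -0.07 on the same array.

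The genes were therefore measured together on few arrays. On replicate 4 of day 10, the second ple probe stood at 0.26, TyrR at -0.15 and the first e probe at -0.19. On replicate 3 they stood at 0.07, -0.84 and 0.38. No array of day 10 placed the 3 genes all above 0 or all below it on these probes, and replicates 1 and 2 lacked ple or TyrR.

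Markers of the cell types a head holds were set beside the members at day 10. Among glia, which express e, 6 of 8 marker genes other than e were tested, all 6 were below 0 and their median was -0.30, against 0.02 over all probes tested. The lowest was alrm, an astrocyte marker, at -0.39 (SE 0.15, limma adjusted p = 0.497). None of the 6 passed the adjusted threshold of 0.05, in a comparison where limma called 0.222% of 9479 probes, and 3 had an unadjusted p under 0.05, as 791 of all probes did. With the swaps not turned 5 of 6 were below 0, and 2 passed as lower, moody at -0.44 (adjusted p = 0.019) and nrv2 at -0.43 (0.0467), in a setting that called 11.8% of all probes lower and 18.7% higher. Among dopaminergic neuron markers other than ple, 3 were tested, Pu at 0.02, Ddc at 0.09 and DAT at 0.13.

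Photoreceptor markers had 3 of 6 above 0 at day 10 and a median of -0.02. Fat body markers had 3 of 6 above 0, a median of -0.01 and 2 with an unadjusted p under 0.05. There apolpp was read from its first probe, at -0.05. The second apolpp probe, measured on as many arrays, stood at -0.50 (SE 0.16, limma adjusted p = 0.446, unadjusted p = 0.00852). It was below 0 on 4 of 4 arrays, so the fat body median and count depend on the apolpp probe taken. The marker farthest from 0 was Lsp2 of the fat body list, at -0.72 (SE 0.14, limma adjusted p = 0.0914), but it stood at 0.19 with the swaps not turned. The neuronal marker nSyb stood at 0.05, and the muscle markers Act88F and Mlc2 at -0.32 and -0.03, none past the threshold. With the swaps not turned, nSyb at 0.67 (adjusted p = 0.00455), Act88F at 0.35 (0.0251), Yp2 at 0.76 (0.00294), apolpp at 0.43 (0.0379) and Arr2 at 0.69 (0.0325) passed as higher, and Galphaq at -0.37 (0.0447) as lower. Second probes of apolpp, at 0.22 (limma adjusted p = 0.391), and of Galphaq, at 0.07 (0.67), did not pass there. The part of these cell types in the members' values was not tested.

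At day 14 after ETH, what could be read of ple came from dye swaps. The second probe stood at -0.43 on replicate 3 and -0.04 on replicate 4, with a mean of -0.23 ± 0.27 (SD, n = 2). The first probe stood at -1.01 on replicate 3, from spots at -0.71 and -1.31, so both ple probes were below 0 on that array. Both lie above 0 there when the swaps are not turned. TyrR had no value on any of the 4 arrays. The first e probe had 1, on replicate 3, at -0.24 from spots at -0.47 and -0.01.

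At day 14 without ETH the second ple probe stood at 0.02 on replicate 3 and -0.24 on replicate 4, with a mean of -0.11 ± 0.19 (SD, n = 2). The first ple probe and both e probes had no value. TyrR had 1, on replicate 2, at -0.13, from spots at 0.14 and -0.39. These values lay between -0.24 and 0.02, on Cy3 arrays for ple and on 1 Cy5 array for TyrR. The day-10 values, from which both genes were picked, ran from -1.38 to 0.26 for this ple probe and -1.09 to -0.15 for TyrR, over both dyes. On the day-10 Cy3 arrays ple read 0.07 and 0.26. A change between the days cannot be read from these ranges.

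The design allows ple to be compared between the day-14 arms, which were not the contrast that picked it, on arrays of 1 orientation where a dye effect common to the arms cancels. The second probe averaged -0.23 in the arm with ETH and -0.11 in the arm without it (n = 2 arrays each), a difference of -0.12, and the arms overlapped. A 2-sided exact permutation test over the 4 arrays gave p = 0.667, and the smallest p that its 6 regroupings allow is 0.333, so this design could not reach the threshold. Same-numbered arrays of the arms deviated together across probes (r = 0.12 to 0.31 in 4 pairs). Replicate 4 with ETH and replicate 3 without, which differ in number, gave 0.25, so the pairing of these replicates is uncertain. Taken as pairs, the differences of ple were -0.45 for replicate 3 and 0.20 for replicate 4, on opposite sides of 0, with an exact sign-flip p of 1, where the smallest possible is 0.5. The sign of the difference turns over if the swaps had already been turned. With 2 arrays of an arm allowed as enough for the model, the fitted day-14 means of ple would be -1.01 (SE 0.23) with ETH and -0.88 (SE 0.23) without. All 4 arrays behind these fits lay between -0.43 and 0.02. The rest of the fitted distance is the dye term, which was set by replicate 2 of day 10, the only array of this probe with treated RNA in Cy5. That array is fitted exactly, so these SEs leave out its deviation.

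The measured arrays of the second ple probe split by dye orientation, which cannot be told apart from replicate number in this design. It had a value on all 6 arrays with treated RNA in Cy3 and on 1 of 6 with treated RNA in Cy5. Among 7558 probes with 1 gene, 9 probes, or 0.12%, had a value on all 6 Cy3 arrays and on at most 1 of the Cy5 arrays, and none had the reverse pattern. The pattern counted is that of this ple probe, which is among the 9. Per array, 5077 to 10433 probes had a value with treated RNA in Cy5 and 6782 to 9576 with treated RNA in Cy3. The other member probes were seen on both orientations except the second e probe, which had 1 array.

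Likeness in pattern could be measured for the second ple probe alone, since 6 shared arrays were asked for. Uncentred correlation, which does not change when swaps are turned, was taken with 3327 other probes with 1 gene. The median was -0.04. The 5 highest were CG10026 at 0.99, the cytochrome P450 gene Cyp28d1 at 0.97, the scaffold protein gene CASK at 0.95, CG6966 at 0.94 and the adenylyl cyclase gene Ac78C at 0.93, each over 6 shared arrays. All 5 were below 0 on replicate 2 of day 10, from -0.87 for Cyp28d1 to -0.45 for CG6966. Of the sum of squares of ple over its 7 arrays, 85.8% lies in that array, so these likenesses are largely a statement about 1 array.

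The amine pathway beyond the members was read from a list of 41 other genes for synthesis, cofactors, conjugation, transport and receptors. Of these, 20 had a probe. Probes for Tdc1 and Tdc2, which make tyramine, for Tbh, which turns it into octopamine, for the vesicular transporter gene Vmat, for b, which supplies beta-alanine, and for the histamine receptor genes ort and HisCl1 were among those not analysed here. At day 10, 17 of the 20 genes were tested with 1 probe each, the one with most values. DAT had too few values on that probe, and its other probe would make the count 18, with 14 above 0. None of the 17 passed the adjusted threshold in limma, 0 had an unadjusted p under 0.05, and 13 of 17 were above 0, with a median of 0.09 against 0.02 over all 9479 probes, of which 0.222% were called and 791 had such a p. With the swaps not turned the median was -0.16 and 7 were above 0. There 3 passed as lower, in a setting where 11.8% of all probes did so: Dhpr, which recycles the pterin cofactor of tyrosine hydroxylase, at -0.52 (limma adjusted p = 0.0121), CarT, a carcinine transporter, at -0.53 (0.0258), and the octopamine receptor gene Octbeta2R at -0.39 (0.0449). With print-block medians subtracted as well, 8.43% of all probes passed as lower, CarT no longer passed and t did, at -0.77 (0.0162).

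**Figure D3:**
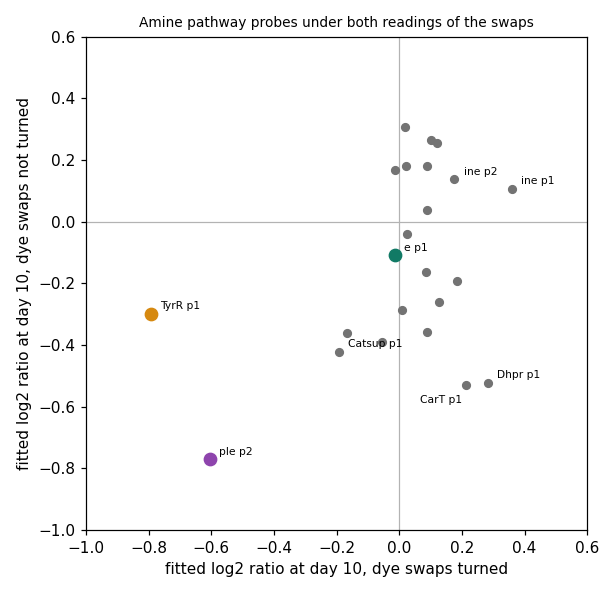
Fitted day-10 log2 ratio of each tested amine pathway probe with dye swaps turned (x axis) and not turned (y axis); coloured points are ple, TyrR and e. ple and TyrR are the lowest 2 on the x axis under the turned reading, at -0.61 and -0.79. Both were picked from their day-10 values and have 3 and 1 residual degrees of freedom, so this rank is no test. Dhpr and CarT are among several probes that change sign between the readings, as do Hdc, pr, DAT and Octbeta1R.

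The tested enzymes and transporters nearest to ple and e in the pathway had fitted day-10 ratios between -0.17 and 0.13 with swaps turned. The tyramine genes Tdc1, Tdc2 and Tbh, nearest to TyrR, were not analysed here. Ddc, the next step after ple, stood at 0.09 on its first probe (SE 0.13, n = 3 arrays, limma adjusted p = 0.884). Ddc had 3 probes that differed: the second read -0.07 and -0.82 on its 2 arrays, and the third -0.97 and -0.01. Pu, which makes the first intermediate of the pterin cofactor, stood at 0.02 (SE 0.16, adjusted p = 0.982). DAT, the dopamine transporter, stood at 0.13 on its first probe (SE 0.13, adjusted p = 0.827), and its second probe read 0.44 on 1 array. t, which reverses the reaction of e, stood at -0.17 (SE 0.24, adjusted p = 0.882). With the swaps not turned, the first Ddc probe stood at 0.04, Pu at 0.31, the first DAT probe at -0.26 and t at -0.36.

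The 4 listed probes farthest from 0 at day 10 did not pass either. They were the first probe of ine, a transporter of the neurotransmitter family, at 0.36 (SE 0.17, limma adjusted p = 0.592), Dhpr at 0.28 (0.19, 0.729), CarT at 0.21 (0.22, 0.836) and Catsup, a negative regulator of tyrosine hydroxylase, at -0.19 (0.20, 0.833). The second ine probe stood at 0.18 (SE 0.12, limma adjusted p = 0.74). Of the 8 probes of this comparison named for their distance from 0 or as partners, 3 had the opposite sign with the swaps not turned.

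At day 14 after ETH, 15 of the 20 genes were tested, none passed, 3 had an unadjusted p under 0.05 and 7 were above 0, with a median of -0.01 against 0.003 over all 5135 probes, of which 0% were called by limma and 226 had such a p. The receptor genes were all 5 of 5 above 0, with a median of 0.29. This did not hold with the swaps not turned, where 1 of 5 was above 0 and the median was -0.02. The serotonin receptor gene 5-HT2A stood at 0.41 (SE 0.19), the octopamine receptor gene Octbeta1R at 0.38 (SE 0.15) and DopEcR, a receptor for dopamine and ecdysteroids, at 0.29 (SE 0.11), with a limma adjusted p of 0.998 for each. For DopEcR this was the first probe, the 1 above 0 with the swaps not turned, at 0.27. The second DopEcR probe stood at 0.23 (SE 0.145, limma adjusted p = 0.998), but at -0.18 with the swaps not turned. The probe farthest from 0 was t at -0.53 (SE 0.27, adjusted p = 0.998). Its arrays read -1.03, -0.17 and -0.33. Both Ddc probes tested lay near 0, at -0.05 and 0.02, as did the second DAT probe at -0.05 and Pu at 0.02. Of the 8 probes named for their distance from 0 or as partners, 4 had the opposite sign with the swaps not turned.

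At day 14 without ETH, 15 genes were again tested and none passed, 2 had an unadjusted p under 0.05, and 7 were above 0, with a median of -0.01, the value over all 6386 probes, of which limma called 0% and 427 had such a p. Catsup stood at -0.35 (SE 0.16, limma adjusted p = 0.744) and was below 0 on 4 of 4 arrays. It passed as lower from that group's arrays alone (-0.35, adjusted p = 0.0275), where 3.24% of all probes did so, and with array weights (-0.38, 0.0498), where 1.47% did. It stood at 0.03 with the swaps not turned. speck, an arylalkylamine N-acetyltransferase gene, stood at -0.35 (SE 0.15, adjusted p = 0.731), and it too passed from that group's arrays alone, at -0.39 (0.0468). Not passing were the second ine probe at 0.21 (SE 0.11, limma adjusted p = 0.782) and the third Ddc probe at -0.27 (SE 0.16, adjusted p = 0.811). The first probes of these genes stood at 0.01 for ine (SE 0.13, limma adjusted p = 0.986) and 0.10 for Ddc. Receptor genes were 5 of 5 above 0, with a median of 0.09, and 1 of 5 with the swaps not turned. That 1 was DopEcR, at 0.10 there on its first probe and -0.28 on its second. For t the 4 arrays read 0.59, 0.24, 0.02 and -0.92, a mean near 0 with the widest spread of the genes named in this group (SD 0.65). The second DAT probe stood at -0.09 and Pu at -0.01. Here too 4 of the 8 probes named for their distance from 0 or as partners had the opposite sign with the swaps not turned.

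Between the day-14 arms none of the 15 listed genes passed, none had an unadjusted p under 0.05, and 11 were above 0, with a median of 0.04 against 0.03 over all 4766 probes, of which limma called 0% and 78 had such a p. The gene t had an ETH-arm minus normal-food-arm difference of -0.51 (SE 0.35, limma adjusted p = 1), and its arrays overlapped between the arms. With the replicate number as a block and the day-14 arrays alone, limma called 1 of the 4766 probes, 263 had an unadjusted p under 0.05, and none of the 15 genes did. For day 14 minus day 10 in the ETH arm, 14 listed genes were tested and none passed, with 0 under an unadjusted p of 0.05. Limma called 0.0449% of 4451 probes in that comparison, and 257 had such a p. With the swaps not turned 2 had such a p and Dhpr passed as higher at day 14, at 0.81 (limma adjusted p = 0.0175), where 4.07% of all probes did so. With them turned it stood at -0.32.

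**Figure D4:**
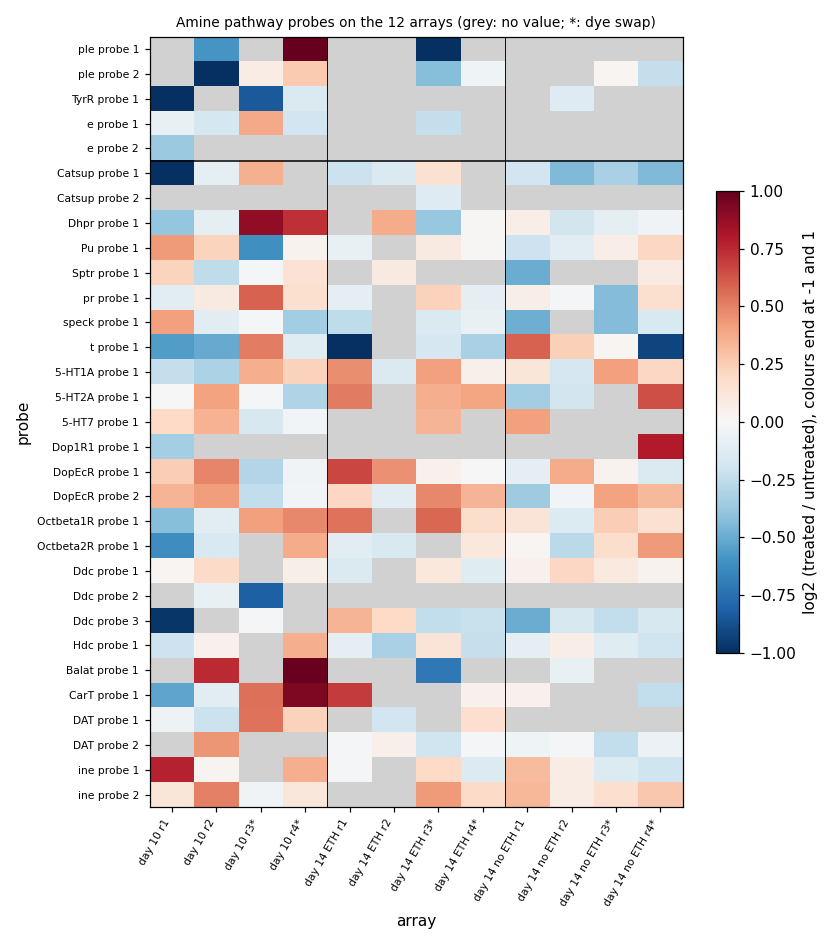
Log2 ratio of treated over untreated for the 31 probes of the amine pathway list on the 12 arrays, with dye swaps turned, colours ending at -1 and 1 and grey for no value; the members are the 5 rows above the line. Grey fills most of the member rows at day 14, while t, DopEcR and Ddc were measured in all 3 groups.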

How the data were processed

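Spots were quantified in GenePix Pro 6.0 and ratios normalized in Acuity 4.0, with filters on intensity, saturation, quality marks and uniformity, per the labels' protocols and the series' design text. The deposited values are log2 ratios. The scale was taken from the values, since the 42 lowest, made linear, all (100%) fell on steps of 0.001, within 0.05 of a step. The deposited medians per array ran from -0.62 to 0.03, and the reason is unknown.

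Here 27648 spots were averaged to 13824 probes, 5 spot values at the ceiling of 16.61 were set to missing, and each array was centred on its median. The platform annotation gave 1 gene to 7558 probes, of which 7447 matched a current symbol. limma 3.58.1 in R 4.3.3 fitted all 12 arrays with a mean per group and a dye term per probe. A probe with at least 3 arrays in a group was tested, 2-sided, with Benjamini-Hochberg adjustment over all probes of a comparison and a threshold of 0.05. The script was checked on simulated data. P-values measure the spread between pools of heads, shared over the arrays.

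The members and the lists of pathway and marker genes were chosen with earlier results of these data known. Every member probe was named, besides, per group, the 4 listed probes farthest from 0, direct partners of the members, any listed gene that passed, the most extreme marker and glial marker, and the 5 probes most like a member.

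Replicate numbers were checked as pairs over the 2145 probes measured on all arrays, from the correlation of residuals. Same-numbered pairs of the day-14 groups gave 0.12 to 0.31, all 4 over 0.1, and the numbers were taken to pair these groups. Of 12 differently numbered pairs there, 1 was over 0.1, replicate 4 with ETH and replicate 3 without, at 0.25. That exceeded the 0.14, 0.12 and 0.14 of same-numbered replicates 2, 3 and 4, so the pairing of replicates 3 and 4 is uncertain. The 8 same-numbered pairs with day 10 ran from -0.49 to -0.14 and were not taken as pairs. The pairing comes from the data, since the labels do not state it.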

Additional observations from a re-analysis of the deposited data

How the results depend on the processing

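The fitted day-10 mean of TyrR was -0.79 and moved by more than 1 SD of its arrays with dye swaps not turned, to -0.30, and to -0.17 with print-block medians subtracted as well. For ple and e no alternative moved the fitted mean by more than 1 SD of the arrays, but that SD was 0.90 for ple, and its fitted mean ran from -1.21 with first spots alone to 0.004 with second spots alone. Leaving out arrays moved the fitted mean of e between -0.16 and 0.13, and leaving out replicate 2, 3 or 4 of day 10 left ple with no fitted mean under the 3-array rule, as leaving out any measured day-10 array did for TyrR.

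The count of probes past the threshold was 21 at day 10, 0 in each day-14 group and 2 for day 14 minus day 10 in the ETH arm. With swaps not turned these were 2888, 17, 13 and 430, in the order day 10, day 14 with ETH, day 14 without and day 14 minus day 10, and with print-block medians subtracted as well 1574, 29, 22 and 366. At day 10 the count was 0 with the arrays scaled to equal spread, 8 when the dye was left out of the model, 1 from the day-10 arrays alone, 11 with array weights, and 13 and 12 from first and second spots. At day 14 without ETH it was 67 with scaling, 1 with print-block medians subtracted, 275 from that group's arrays alone and 122 with array weights. For day 14 minus day 10 it was 13 with a dye term per group, 11 without centring, 0 with scaling, 8 with print-block medians subtracted, 7 with all 4 arrays required, and 5 and 4 from first and second spots. Leaving out 1 array gave 2 to 16 at day 10, 0 to 1 at day 14 without ETH and 2 to 8 for day 14 minus day 10. The causes of these shifts were not tested. The alternatives with 1 spot, and with print-block medians and unturned swaps together, were chosen after seeing the data. With the replicate number as a block over all arrays the day-10 count was 22 and no other count changed. For the day-14 groups, where the numbers were taken to pair the samples, that block was also fitted to the day-14 arrays alone. The difference of the arms then gave 1 probe, against 0. This setting too was chosen after seeing the data.

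Among the pathway genes other than ple, TyrR and e, none passed in the main setting in any comparison. The alternatives that called any were swaps not turned at day 10, with and without print-block subtraction, at 3 each, the same 2 settings for day 14 minus day 10, at 1 each (Dhpr), and, at day 14 without ETH, that group's arrays alone, at 2 (Catsup and speck), and array weights, at 1 (Catsup). The number of arrays with a value, 1 to 7 for each member probe, limits what can be read. The deposited values hold no intensities, so signal over background was not examined.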
